A study of Mus musculus with 8 samples.

Results

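The mitochondrial genome encodes 13 proteins, and 10 of those genes are described here as they were counted in single nuclei of the mouse cortex. They were taken by symbol from the 31053 genes of the deposited matrices: the 7 mitochondrially encoded subunits of respiratory complex I (mt-Nd1, mt-Nd2, mt-Nd3, mt-Nd4, mt-Nd4l, mt-Nd5 and mt-Nd6), and for comparison 1 subunit each of complex III (mt-Cytb), complex IV (mt-Co1) and ATP synthase (mt-Atp8). The other 3 genes, mt-Co2, mt-Co3 and mt-Atp6, enter only as part of the mitochondrial total. All 10 genes were detected in all 8 libraries. Single nuclei RNA sequencing (snRNA-seq) was made from snap-frozen cortex of 4 wild-type (Wt) and 4 Ifnar1-/- mice on the C57BL6J background, all naive and 6 weeks old, with 2 females and 2 males of each genotype. The Ifnar1-/- mice lack the type-I interferon receptor subunit 1 in the whole body, so an effect in any 1 cell type cannot be told apart from an effect of its surroundings. Each library was 1 mouse, and libraries are named by genotype, sex and number, such as Wt F1 or Ifnar1-/- M2.

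Complex I takes electrons from NADH and passes them to ubiquinone while it pumps protons. Its core is built from subunits encoded in the mitochondrion and others encoded in the nucleus and imported, and many nuclear-encoded accessory subunits surround it. The mitochondrial genome is transcribed from both strands as long precursors that are then cut into single messages. Most messages come from transcription of the heavy strand, while mt-Nd6 is the single protein-coding gene read from the other strand and is called the light-strand gene here. Most of the messages carry short poly(A) tails. mt-Nd4l and mt-Nd4 share 1 message, as do mt-Atp8 and mt-Atp6. These RNAs lie inside mitochondria, outside the nucleus, so in a preparation of nuclei they are RNA that came along from outside them. Neurons of the cortex depend strongly on respiration, and mature oligodendrocytes are known to rely more on glycolysis.

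The overlaps between neighbouring genes are shown because their bases belong to both genes of a pair. All coordinates are from the GRCm38 build, and sequences are read 5′ to 3′ on the strand of the named gene, with the shared bases in capitals. mt-Nd4l at chrM:9877-10173 and mt-Nd4 at chrM:10167-11544 share 7 bases. mt-Atp8 at chrM:7766-7969 and mt-Atp6 at chrM:7927-8607 share 43 bases, of 204 in the whole of mt-Atp8. mt-Nd5 at chrM:11742-13565 and mt-Nd6 at chrM:13552-14070 overlap tail to tail by 14 bases on opposite strands, so the 2 ends below are reverse complements of each other.
mt-Nd4l, end of the gene: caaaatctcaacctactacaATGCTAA
mt-Atp8, end of the gene: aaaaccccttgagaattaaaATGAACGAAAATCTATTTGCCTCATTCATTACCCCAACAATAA
mt-Nd5, end of the gene: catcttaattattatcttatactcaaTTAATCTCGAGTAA
mt-Nd6, end of the gene: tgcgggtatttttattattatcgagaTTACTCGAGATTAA

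The genes of the 2 strands also differ in base composition, which is shown because the library chemistry primes on runs of A. mt-Nd6 held 22.2% A and 43.7% T in its 519 bases, whereas the 9 heavy-strand genes held between 29.5% A (mt-Co1) and 40.7% A (mt-Atp8). The longest run of A was 3 bases in mt-Nd6, the shortest such maximum of the 13 genes. It was 8 bases in mt-Nd2, 7 bases in mt-Nd5, mt-Nd4 and mt-Co1, 5 bases in mt-Nd3, mt-Atp8 and mt-Cytb, and 4 bases in mt-Nd4l. The stretch around the longest run of 4 genes is given with the run in capitals.
mt-Nd6, chrM:13986-14028, light strand: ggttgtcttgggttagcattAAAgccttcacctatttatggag
mt-Nd5, chrM:12616-12662: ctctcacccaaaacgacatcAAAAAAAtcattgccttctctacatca
mt-Nd3, chrM:9533-9577: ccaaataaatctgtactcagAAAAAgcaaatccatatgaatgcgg
mt-Atp8, chrM:7886-7930: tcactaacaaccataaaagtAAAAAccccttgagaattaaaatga
Whether priming within these genes changed their counts was not tested.

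A unique molecular identifier (UMI) marks each captured RNA molecule so that it is counted once. The libraries held 44063346 to 58423423 UMIs, and 52053 nuclei of 56780 barcodes were kept. Nuclei were clustered without the mitochondrially encoded genes and named from markers. This gave 22563 glutamatergic neurons (Slc17a7 detected in 86.4%), 6642 GABAergic neurons (Gad1 in 76.1%), 7303 oligodendrocytes (Mog in 93.8%) and 4390 microglia (Cx3cr1 in 94.5%). Astrocytes numbered 163, with 5 to 64 in a library, and were not tested. Clusters that passed no naming rule held 16.1% of the nuclei, 15.9% in Wt and 16.3% in Ifnar1-/-, and count in all nuclei only. Among the tested sets, astrocytes, 456 oligodendrocyte precursors and 2176 striatal projection neurons, which are not cortical, also count in all nuclei only. Levels are given as counts per 1000000 UMIs (CPM) of the summed nuclei of a library, either all kept nuclei or those of a class. In all nuclei Xist, the RNA of the inactive X chromosome, lay at 825 to 1063 CPM in females. In males it lay at or under 0.53 CPM, as the sex labels say. Ifnar1 itself was still counted in the knockouts, at 13.9 to 16.9 CPM against 16.1 to 19.9 CPM in Wt, and since the position of its reads relative to the disrupted stretch is not known, this does not check the genotype labels.

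In the kept nuclei, the 13 genes gave 1736378 UMIs, of which the 10 genes described here gave 764743, or 44.0%. The heavy-strand genes ranged over more than an order of magnitude between them. Compared per length, as the mean CPM per kilobase over 8 libraries, mt-Co1 stood highest of the 10 at 420 ± 279 (SD), and mt-Nd3 followed at 383 ± 253 and mt-Cytb at 312 ± 145. These 3 were not separated from each other, since mt-Co1 was above mt-Nd3 in 5 of 8 libraries and mt-Nd3 above mt-Cytb also in 5. A further 3 complex I genes stood close together, with mt-Nd4 at 247 ± 159, mt-Nd1 at 247 ± 144 and mt-Nd2 at 240 ± 108 CPM per kilobase, and the order among them was not consistent across libraries. mt-Cytb was above mt-Nd4 in 7 of 8 libraries (exact paired permutation p = 0.0156, adjusted p = 0.0268 over 12 neighbouring pairs).

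Below these, each step of the order held in 8 of 8 libraries (exact paired permutation p = 0.00781 for each step, the smallest that 8 libraries can give, adjusted p = 0.0156). Here and for mt-Cytb above mt-Nd4, the order was read from the same libraries in which its steps were tested. The p-values are therefore not separate support for the order. mt-Nd4l lay at 111 ± 79.2, mt-Atp8 at 53.5 ± 37.8, mt-Nd5 at 25.7 ± 17.1 and mt-Nd6 at 10.2 ± 10.4 CPM per kilobase. mt-Nd5, the longest of the complex I genes at 1824 bases, and mt-Nd6, which lies beside it, were thus the lowest of the 13. In both pairs that share a message the first gene was the lower, mt-Nd4l against mt-Nd4 and mt-Atp8 against mt-Atp6 at 1359 ± 1090 CPM per kilobase. Counts of a 3′ chemistry do not grow in proportion to length, so the per-length order is a description of this assay.

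mt-Nd6 was sparse. It gave 1919 UMIs in all kept nuclei, from 90 in Ifnar1-/- F2 to 821 in Ifnar1-/- M2. Its level in all nuclei was 2.45, 3.25, 2.69 and 3.97 CPM in Wt F1, F2, M1 and M2, and 7.54, 2.10, 2.35 and 18.0 CPM in Ifnar1-/- F1, F2, M1 and M2. The Wt libraries lay close together, while 2 Ifnar1-/- libraries were above all of them and 2 below. In Ifnar1-/- M2 mt-Nd6 was 6.68 times the median of all libraries without it, against 1.94 to 3.89 times for the 9 heavy-strand genes.

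**Figure D1:**
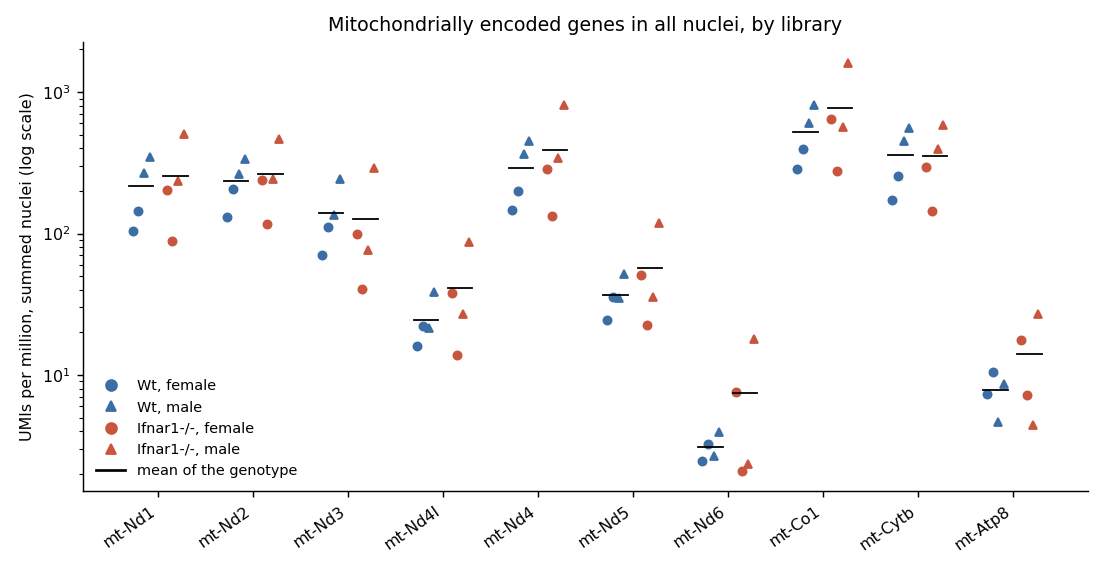
Level of each of the 10 genes in all nuclei, in CPM on a log axis, with 1 point per library (circles females, triangles males, genotypes by colour) and a line at the mean of each genotype. mt-Co1 lies between 275 and 1612 and mt-Nd6 between 2.10 and 18.0, and Ifnar1-/- M2 is the highest library for all 10 genes.

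The share of UMIs that came from the 10 genes differed between cell classes in the same order in every library, lowest in glutamatergic neurons and highest in microglia. In glutamatergic neurons it was 0.0689, 0.108, 0.165 and 0.208% in Wt F1, F2, M1 and M2, and 0.140, 0.0565, 0.149 and 0.319% in Ifnar1-/- F1, F2, M1 and M2. In GABAergic neurons it was 0.123, 0.181, 0.249 and 0.332% in Wt and 0.240, 0.104, 0.287 and 0.434% in Ifnar1-/-, in the same library order. Each library thus gave more in GABAergic than in glutamatergic neurons.

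Oligodendrocytes held 0.182, 0.269, 0.496 and 0.531% in Wt and 0.449, 0.156, 0.334 and 1.15% in Ifnar1-/-. Microglia held 0.434, 0.656, 0.923 and 0.894% in Wt and 0.975, 0.367, 0.576 and 1.80% in Ifnar1-/-. Over the 8 libraries the class means were 0.152% ± 0.0839 (SD) for glutamatergic and 0.244% ± 0.109 for GABAergic neurons, 0.446% ± 0.318 for oligodendrocytes and 0.828% ± 0.454 for microglia. All 6 pairs of classes were ordered alike in 8 of 8 libraries (exact paired permutation p = 0.00781, adjusted p = 0.00781 over 6 pairs). The mean log2 ratio ran from -0.74 for glutamatergic against GABAergic neurons to -2.48 for glutamatergic neurons against microglia.

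The order of the classes in share ran against their depth, and it changed when the UMIs were counted per nucleus. The median nucleus held 8777 UMIs among glutamatergic and 6942 among GABAergic neurons, 2079 among oligodendrocytes and 1472 among microglia. On average the 10 genes gave 14.7 UMIs to a glutamatergic and 18.4 to a GABAergic nucleus, against 10.5 in oligodendrocytes and 12.0 in microglia. Glutamatergic neurons were above microglia per nucleus in 7 of 8 libraries (exact paired permutation p = 0.0703, adjusted p = 0.0703), with ratios between libraries of 0.776 to 1.85, while their total UMIs per nucleus were 5.27 to 7.38 times as many. GABAergic neurons were above the other 3 classes per nucleus in 8 of 8 libraries (exact paired permutation, adjusted p = 0.0117 for each). RNA of another class was also present, since Slc17a7, a marker of glutamatergic neurons, was detected in 12.6% of microglia. How much of the mitochondrial RNA in each class came from outside its nuclei was not tested.

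**Figure D2:**
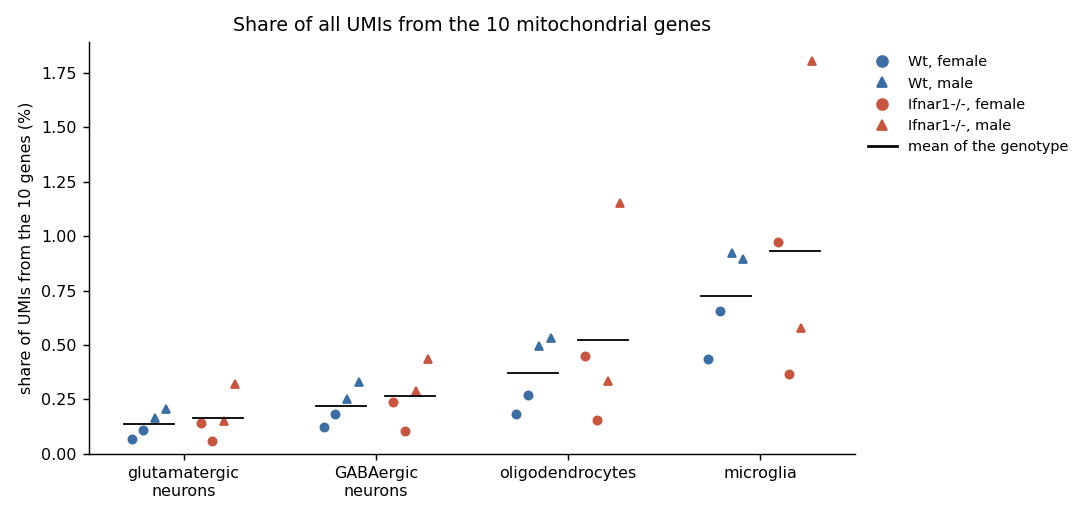
Percent of all UMIs that came from the 10 genes, by cell class, with 1 point per library (circles females, triangles males, genotypes by colour) and a line at the mean of each genotype. The points climb from glutamatergic neurons (mean 0.152% over 8 libraries) through GABAergic neurons and oligodendrocytes to microglia (mean 0.828%), and the highest point of each class is Ifnar1-/- M2.

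The light-strand gene was compared with the heavy-strand genes inside the same nuclei, as the percent of all mitochondrially encoded UMIs that were mt-Nd6. This share did not follow the class order of the total. It was 0.108% ± 0.0558 (SD, n = 8) in glutamatergic and 0.110% ± 0.0453 in GABAergic neurons, with 0.110% ± 0.0524 in oligodendrocytes and 0.102% ± 0.0477 in microglia. The 6 differences between classes were at most 0.00802 percentage points in size, and none passed the exact paired permutation test (smallest p = 0.344, adjusted p = 0.992 for each). Microglia gave only 147 mt-Nd6 UMIs and oligodendrocytes 247, so small differences were not detectable at this depth.

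Between libraries the same share varied more. In all nuclei it was 0.119, 0.110, 0.0569 and 0.0635% in Wt F1, F2, M1 and M2. In Ifnar1-/- F1, F2, M1 and M2 it was 0.183, 0.118, 0.0541 and 0.160%. The 95% exact binomial intervals, which cover counting error only, were 0.163 to 0.205% in Ifnar1-/- F1 and 0.150 to 0.172% in Ifnar1-/- M2, and both lay above the intervals of the other 6 libraries. Averaged over the 4 classes, the libraries spanned 3.79-fold from lowest to highest, whereas averaged over the libraries the classes spanned 1.08-fold. The same contrast between libraries and classes was seen for mt-Atp8 (5.28-fold and 1.14-fold), mt-Nd3 (2.30-fold and 1.04-fold) and mt-Nd4l (2.17-fold and 1.17-fold). The other 6 genes spanned at most 1.82-fold between libraries.

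**Figure D3:**
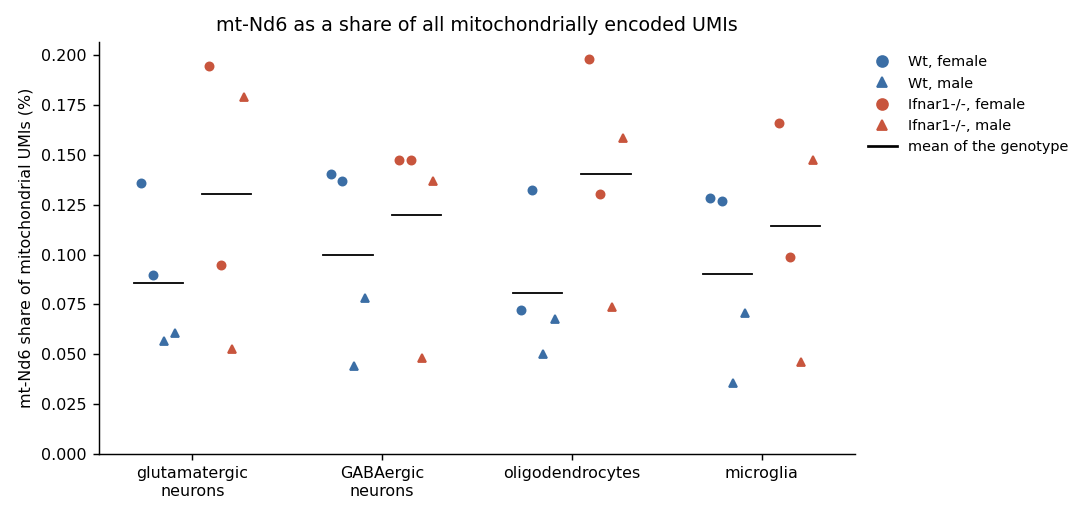
Percent of mitochondrially encoded UMIs that were mt-Nd6, by cell class, with 1 point per library (circles females, triangles males, genotypes by colour) and a line at the mean of each genotype. The class means over 8 libraries lie between 0.102 and 0.110%, while single libraries reach from 0.0355 to 0.198%.

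The study compared Ifnar1-/- with Wt mice, and none of the 10 genes passed that comparison in any of the 5 sets of nuclei. UMIs were summed per library and class and fitted over all genes with edgeR's quasi-likelihood test, with a Benjamini-Hochberg adjusted p under 0.05 as the call. 0 of 10 genes were called in all nuclei, glutamatergic neurons, GABAergic neurons, oligodendrocytes and microglia, where the share of all genes called was 0.0501, 0.0556, 0.0273, 0.0710 and 0.105%. At an unadjusted p under 0.05, mt-Nd6 in oligodendrocytes passed and no other gene in any set. DESeq2 also called 0 of 10 in each set, with 1 gene at an unadjusted p under 0.05 in all nuclei, 1 in glutamatergic neurons, 1 in oligodendrocytes and 0 in the others. The fitted values leaned upward, with 9, 8, 9, 10 and 9 of the 10 genes above 0 and medians of 0.51, 0.48, 0.44, 0.67 and 0.51 on the log2 scale, where the median of all genes was between -0.0042 and 0.0060. Without Ifnar1-/- M2 the medians were -0.12, -0.12, 0.04, -0.13 and -0.14. Leaving out this male library also unbalanced the sexes between the genotypes, in a fit with no sex term. The part of sex in that change was not tested.

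mt-Nd6 had the largest fitted difference between genotypes of the 10 genes in each set except GABAergic neurons. Its log2 fold change was 1.29 (SE 0.64) in all nuclei, 1.40 (SE 0.70) in glutamatergic neurons, 0.76 (SE 0.52) in GABAergic neurons, 1.69 (SE 0.65) in oligodendrocytes and 1.12 (SE 0.65) in microglia, each with an edgeR adjusted p of 1.00. In oligodendrocytes mt-Nd6 lay at 2.93, 7.67, 5.68 and 8.28 CPM in Wt F1, F2, M1 and M2 and at 19.8, 4.59, 5.96 and 45.6 CPM in Ifnar1-/- F1, F2, M1 and M2. Here again the groups overlapped, with 2 Ifnar1-/- libraries above every Wt library and 2 within their range. As a share of mitochondrial UMIs in all nuclei, mt-Nd6 averaged 0.129% ± 0.0567 in Ifnar1-/- and 0.0872% ± 0.0315 in Wt (n = 4 each, exact permutation p = 0.314, adjusted p = 0.514 over 5 sets). In oligodendrocytes the averages were 0.140% ± 0.0523 and 0.0806% ± 0.0358 (n = 4 each, exact permutation p = 0.114, adjusted p = 0.514).

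The share of UMIs from the 10 genes together did not pass either. In all nuclei it averaged 0.229% ± 0.157 in Ifnar1-/- and 0.183% ± 0.0833 in Wt (n = 4 each, exact permutation p = 0.714). Over the 5 sets the exact permutation p ran from 0.629 to 0.714 (adjusted p = 0.714 for each). Without Ifnar1-/- M2 the difference turned in all 5 sets, to a mean 0.0286 percentage points lower than Wt in all nuclei. Leaving out this male library also unbalanced the sexes between the genotypes, and the share was compared without a sex term. The part of sex in the turn was not tested. Ifnar1-/- M2 stood apart in this measure, since mitochondrial RNA made up 1.12% of its UMIs against 0.179% in the lowest library. In it, 57.4% of nuclei were at or above 1% mitochondrial UMIs.

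Within each sex, 2 libraries stood against 2. In females the share of the 10 genes in all nuclei averaged 0.117% in Wt and 0.136% in Ifnar1-/-, and in males 0.250% and 0.322%. In each sex the Ifnar1-/- libraries lay on both sides of the Wt libraries. A test of whether the genotype difference itself depended on sex called 0 genes in any set with edgeR (233 to 490 genes at an unadjusted p under 0.05, and 0 of the 10 genes).

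**Figure D4:**
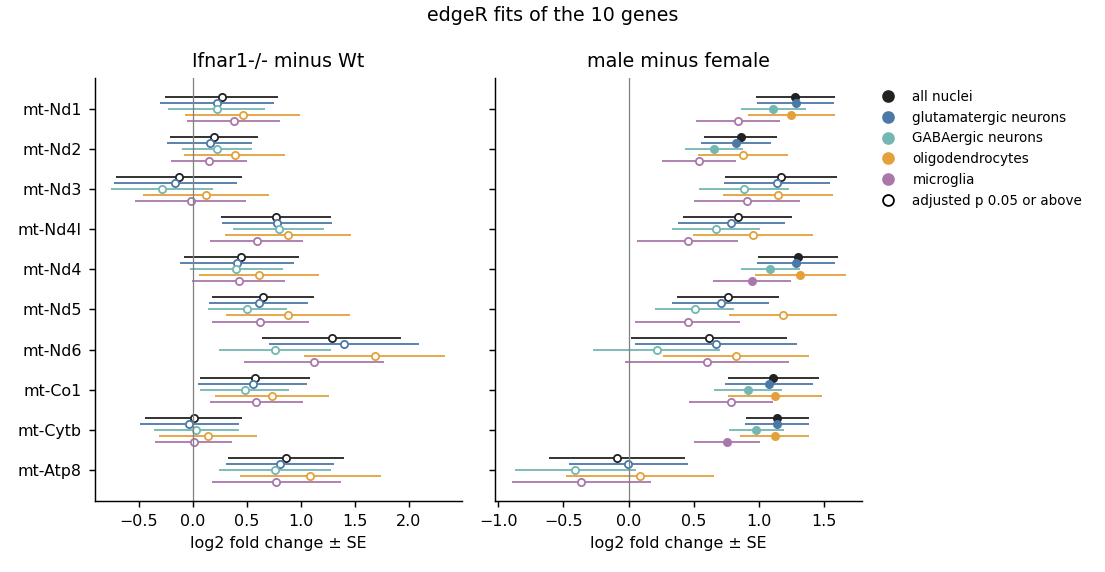
Fitted log2 fold change of each of the 10 genes in 5 sets of nuclei, with bars for the standard error, for Ifnar1-/- minus Wt (left) and male minus female (right), filled where the adjusted p was under 0.05. No point is filled in the genotype panel, where mt-Nd6 reaches 1.69 in oligodendrocytes, and the filled points of the sex panel lie between 0.66 and 1.32.

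By sex, some of the genes passed. Males held more RNA of mt-Nd4 and mt-Cytb than females in all 5 sets and of mt-Nd1 in all but microglia, by 0.75 to 1.32 on the log2 scale, while mt-Nd6 and mt-Atp8 were called in none. In edgeR's fit with genotype as a term, 5 of 10 genes were called higher in males in all nuclei and in each of the neuron classes, 4 in oligodendrocytes and 2 in microglia, and none lower. Of all genes, 27.1, 30.0, 25.6, 22.0 and 20.0% were called between the sexes, and 15.3, 16.5, 14.4, 13.0 and 12.0% were called higher in males. The labels give no date of preparation, so sex and any step of preparation shared by libraries of 1 sex cannot be told apart. The median log2 difference of the 10 genes was 0.98, 0.95, 0.78, 1.12 and 0.68, beside medians of all genes between -0.012 and 0.0061.

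In all nuclei mt-Nd4, a proton-pumping core subunit, lay at 147 and 200 CPM in the Wt females, 364 and 449 in the Wt males, 284 and 133 in the Ifnar1-/- females and 341 and 809 in the Ifnar1-/- males. Every male library was above every female library. Its log2 difference was 1.30 (SE 0.31, edgeR with Benjamini-Hochberg adjusted p = 0.0144). mt-Nd1, which helps form the ubiquinone pocket, rose by 1.28 (SE 0.30, adjusted p = 0.0145). mt-Cytb, the haem-bearing core of complex III, rose by 1.14 (SE 0.24, adjusted p = 0.00926) and mt-Co1, the catalytic subunit of complex IV, by 1.11 (SE 0.35, adjusted p = 0.0429). mt-Nd2 was closest to the threshold, at 0.86 (SE 0.28, adjusted p = 0.0492). In glutamatergic neurons the calls of mt-Nd1, mt-Nd4 and mt-Cytb held without any 1 library, while mt-Co1 and mt-Nd2 were lost without Wt F1, Wt M1, Wt M2, Ifnar1-/- F2 or Ifnar1-/- M2, and mt-Co1 also without Wt F2. In microglia the calls of mt-Nd4 and mt-Cytb were both lost without Wt F1, Wt M1, Wt M2 or Ifnar1-/- F2, and in oligodendrocytes 1 of the 10 genes was called without Wt F1 or without Ifnar1-/- M2.

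The other 5 genes did not pass. In all nuclei the log2 difference between males and females was 1.17 (SE 0.43) for mt-Nd3, 0.84 (SE 0.42) for mt-Nd4l, 0.76 (SE 0.39) for mt-Nd5, 0.62 (SE 0.60) for mt-Nd6 and -0.09 (SE 0.52) for mt-Atp8, with edgeR Benjamini-Hochberg adjusted p from 0.0726 for mt-Nd3 to 0.914 for mt-Atp8. mt-Atp8 lay at 7.30 and 10.5 CPM in the Wt females, 4.62 and 8.66 in the Wt males, 17.8 and 7.22 in the Ifnar1-/- females and 4.44 and 26.9 in the Ifnar1-/- males, so its sexes overlapped. For mt-Atp8 in glutamatergic neurons the fitted difference was near 0 and its sign changed with the scaling.

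As a share of all UMIs, the 10 genes together were higher in males in 3 sets. In all nuclei males averaged 0.286% ± 0.117 and females 0.127% ± 0.0468 (n = 4 each, exact permutation p = 0.0286, the smallest that 4 against 4 can give, adjusted p = 0.0476 over 5 sets). Glutamatergic neurons (0.210% ± 0.0765 and 0.0933% ± 0.0380) and GABAergic neurons (0.326% ± 0.0798 and 0.162% ± 0.0615) gave the same exact permutation p and adjusted p. The sets come from the same libraries, and all nuclei include both neuron classes, so these 3 are not separate evidence. The adjusted p under 0.05 rests on all 3 sharing the smallest p. In oligodendrocytes the averages were 0.629% ± 0.360 and 0.264% ± 0.132 (exact permutation p = 0.0571, adjusted p = 0.0714), and in microglia 1.05% ± 0.527 and 0.608% ± 0.274 (p = 0.200, adjusted p = 0.200, exact permutation). With 3 libraries against 4, the adjusted p passed in all nuclei and in glutamatergic neurons only without Wt M1 or Ifnar1-/- M1, and in GABAergic neurons only without Wt M1.

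Other measures of the libraries were also compared between the sexes, with p-values that were not adjusted. RNA of the 81 cytosolic ribosomal protein genes, a set of messages found mainly in the cytoplasm, made up 0.190% ± 0.0558 of UMIs in males and 0.0949% ± 0.0111 in females in all nuclei (n = 4 each, exact permutation p = 0.0286), and the sexes were apart at the same p in the 4 classes. Malat1, a long RNA retained in the nucleus, made up 6.20% ± 0.649 in males and 7.54% ± 1.12 in females (exact permutation p = 0.114), and in microglia 3.67% ± 0.401 and 4.81% ± 0.555 (n = 4 each, exact permutation p = 0.0286). Library medians of UMIs per nucleus averaged 6898 ± 929 in males and 7974 ± 2350 in females in all nuclei (n = 4 each, exact permutation p = 0.429). The part of these measures in the result for the 10 genes was not tested.

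The makeup of the mitochondrial UMIs was taken as the percent of the 13 genes that each gene gave. This takes out the total amount of mitochondrial RNA as a scale, but the makeup can still differ with that amount. Whether it did was not tested. The comparisons of makeup were chosen after the values were seen. By genotype 1 gene, mt-Nd3, had groups that did not overlap in each of the 5 sets. mt-Nd3, a small subunit where both arms meet in complex I, made up 3.45, 3.75, 2.86 and 3.88% of mitochondrial UMIs in Wt F1, F2, M1 and M2 in all nuclei, and 2.42, 2.27, 1.75 and 2.59% in Ifnar1-/- F1, F2, M1 and M2. Every Ifnar1-/- library was below every Wt library. The averages were 2.26% ± 0.363 and 3.49% ± 0.455 (n = 4 each, exact permutation p = 0.0286, adjusted p = 0.371 over the 13 genes). As 1 gene of the 13, it made the share of genes that did not overlap 7.69% in all nuclei, and in oligodendrocytes mt-Nd1 was the other such gene (15.4%).

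In single classes the pattern of mt-Nd3 was the same. In glutamatergic neurons its share was 2.83 to 3.87% in Wt and 1.77 to 2.54% in Ifnar1-/-, and in microglia 3.13 to 3.94% and 1.64 to 2.83%. The classes come from the same libraries and are not separate evidence. The result did not pass the adjustment over 13 genes in any set (adjusted p = 0.371, and 0.186 in oligodendrocytes, exact permutation), and among nuclei under 1% mitochondrial UMIs the groups overlapped in oligodendrocytes. As a level, mt-Nd3 did not pass the test by genotype, with a log2 fold change of -0.13 (SE 0.59) in all nuclei against 0.45 (SE 0.53) for mt-Nd4.

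By sex, the genes whose shares did not overlap were mt-Nd2, mt-Atp8 and mt-Nd5 in all nuclei, glutamatergic neurons, GABAergic neurons and microglia, all lower in males. In oligodendrocytes they were mt-Nd2 and mt-Atp8, lower in males, and mt-Co2, higher in males. These 3 of 13 genes make 23.1% in each set (exact permutation p = 0.0286 for each gene, adjusted p = 0.124 over 13 genes). In all nuclei mt-Atp8, the small membrane subunit of ATP synthase, made up 0.145% ± 0.0661 of mitochondrial UMIs in males and 0.386% ± 0.0385 in females. mt-Nd5 made up 0.866% ± 0.139 and 1.22% ± 0.0334, and mt-Nd2 5.15% ± 0.672 and 6.40% ± 0.474. mt-Nd6 averaged 0.0837% ± 0.0512 in males and 0.132% ± 0.0341 in females (exact permutation p = 0.114, adjusted p = 0.190 over 5 sets). Without Ifnar1-/- M2, the male library with the highest mt-Nd6 share, its sexes were apart in all nuclei, GABAergic neurons and microglia (exact permutation p = 0.0286, adjusted p = 0.0476). That is a single leave-out, the sets share libraries, and with all 8 libraries the difference did not pass.

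The 2 genes of a shared message did not keep 1 ratio across libraries. For every 100 UMIs of mt-Atp6 there were 1.93 and 1.94 UMIs of mt-Atp8 in the Wt females, 2.40 and 2.42 in the Ifnar1-/- females, 0.551 and 0.734 in the Wt males and 0.555 and 1.02 in the Ifnar1-/- males. Every female library was above every male library, with averages of 2.17 ± 0.273 and 0.716 ± 0.222 (n = 4 each, exact permutation p = 0.0286). The 4 classes gave the same separation at the same p, but they come from the same libraries and are not separate evidence. The ratio rests on mt-Atp8 counts whose share of mitochondrial UMIs had already separated the sexes, so it is not separate support. These ratios were chosen after the values were seen, and their p-values are not adjusted. For mt-Nd4l the count per 100 UMIs of mt-Nd4 was 11.4 ± 1.36 in females and 8.25 ± 1.99 in males (n = 4 each, exact permutation p = 0.0571). For mt-Nd6 the count per 100 UMIs of mt-Nd5, its neighbour on the other strand, was 10.8 ± 2.75 in females and 9.23 ± 3.89 in males (n = 4 each, exact permutation p = 0.486). How reads in the shared bases of a pair were assigned is not given in the sources used here. Whether these reads differed between libraries was not tested.

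**Figure D5:**
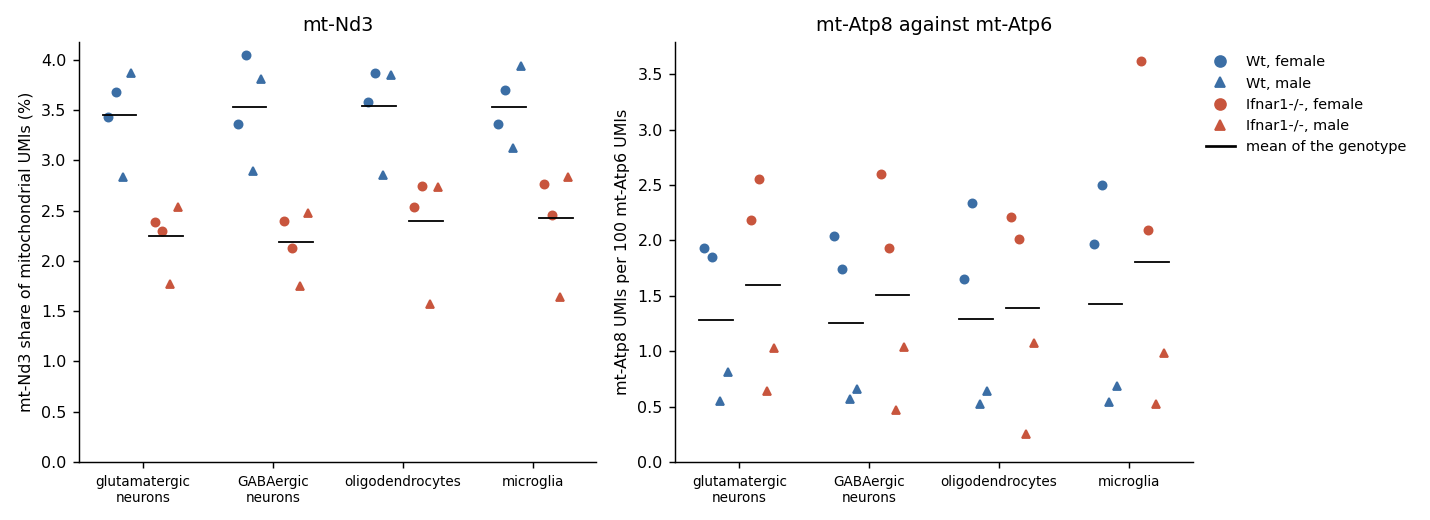
Percent of mitochondrially encoded UMIs from mt-Nd3 (left) and mt-Atp8 UMIs per 100 mt-Atp6 UMIs (right) by cell class, with 1 point per library (circles females, triangles males, genotypes by colour) and a line at the mean of each genotype. In glutamatergic neurons mt-Nd3 lies at 2.83 to 3.87% in Wt and 1.77 to 2.54% in Ifnar1-/-, and mt-Atp8 lies at 1.85 to 2.55 in females and 0.549 to 1.03 in males.

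Nuclear genes of complex I were called by sex, and none by genotype. Of 37 listed, 35 were tested (34 in microglia). By genotype edgeR called 0 in each set (1 at an unadjusted p under 0.05, in microglia), with medians from -0.04 to 0.15. In glutamatergic neurons Ndufv2, a core subunit, had a log2 fold change of -0.11 (SE 0.12). By sex 27, 25, 19, 26 and 19 genes were called higher in males in all nuclei, glutamatergic neurons, GABAergic neurons, oligodendrocytes and microglia, and none lower. These were 77.1, 71.4, 54.3, 74.3 and 55.9% of the list, where 15.3, 16.5, 14.4, 13.0 and 12.0% of all genes were called higher in males. Their median log2 difference was 0.63, 0.54, 0.52, 0.83 and 0.90. In all 5 sets 14 genes were called: Ndufa1, Ndufa2, Ndufa8, Ndufa10, Ndufa11, Ndufb5, Ndufb6, Ndufb7, Ndufb9, Ndufb10, Ndufb11, Ndufc2, Ndufs6 and Ndufs7. Ndufb9, an accessory subunit of the membrane arm, rose by 1.24 to 1.64 on the log2 scale over the sets. Ndufs7, a core subunit that carries an iron-sulfur cluster, rose by 0.70 to 0.84, and Ndufa1 by 0.83 to 1.39. In these calls too, sex and any step of preparation shared by libraries of 1 sex cannot be told apart. RNA of the cytosolic ribosomal protein genes was also higher in males in all 5 sets. Its part in these calls was not tested.

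A list of 32 nuclear genes for the transcription, processing, stability and decay of mitochondrial RNA was more mixed. Of these, 30 were tested (26 in oligodendrocytes and 16 in microglia), and edgeR called 0 by genotype in each set (1 at an unadjusted p under 0.05, in GABAergic neurons). By sex 9, 8, 7, 2 and 1 were called higher in males and 2, 1, 2, 1 and 1 lower, with median log2 differences of 0.22, 0.21, 0.15, -0.02 and 0.16. The share called higher was 30.0, 26.7, 23.3, 7.69 and 6.25%, which in oligodendrocytes and microglia was below that of all genes. The share called lower was 6.67, 3.33, 6.67, 3.85 and 6.25%, below the 11.7, 13.5, 11.2, 9.00 and 7.96% of all genes in each set. Rexo2, an exonuclease that clears short RNAs in mitochondria, was called higher in all 5 sets, by 0.51 to 1.32 on the log2 scale. Polrmt, the mitochondrial RNA polymerase, was called higher in 4 sets. Called lower in males were Pnpt1, the polynucleotide phosphorylase, in 4 sets and Mtpap, the mitochondrial poly(A) polymerase, in 3. Over the 5 sets, Pnpt1 had log2 differences of -0.70 to -0.29 and Mtpap of -0.93 to -0.23. Of the transcription factor Tfam, 2 sets passed, with values from 0.15 to 0.66 over the 5. As for complex I, sex and a shared step of preparation cannot be told apart in these calls.

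The genes whose levels ran most like these were sought among 7397 genes of at least 10 CPM, over 32 sums of 8 libraries and 4 classes, after each gene was centred within its class. These correlations are descriptions over points that share libraries. For the summed heavy-strand genes they were highest with Rpl32 (Pearson's r = 0.957), Rpl41 (0.955), Gm10073 (0.949), Rplp1 (0.949) and Rpl9-ps6 (0.940). For mt-Nd6 they were highest with Rps29 (0.948), 1700030F04Rik (0.840), Rps12-ps3 (0.828), Myo3a (0.805) and Ywhaz (0.801). mt-Nd6 had a correlation of 0.736 with the heavy-strand sum, and was nearer to mt-Nd4l (0.908), mt-Nd5 (0.899) and mt-Atp8 (0.875). mt-Atp8 had a correlation of 0.488 with the heavy-strand sum, the lowest of the 9 genes in it, and mt-Nd1 and mt-Nd4 had the highest, 0.994 each.

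In the nuclei with the highest percentage of mitochondrial UMIs, mt-Nd6 made up a small part of them. The 147 nuclei left out for reaching 10% mitochondrial UMIs gave 95671 mitochondrial UMIs, of which 38 were mt-Nd6 (0.04%). Of these nuclei, 77 came from Wt M1, and 100 fell in clusters with no name, 25 with astrocytes and 12 with microglia. Since Wt M1 was itself low in mt-Nd6 among the kept nuclei, at 0.0569%, the libraries of these nuclei and their mitochondrial content cannot be told apart.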

How the data were processed

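Cortical nuclei of 4 Wt and 4 Ifnar1-/- mice were profiled with the 10x 3′ v3 chemistry. Cell Ranger (version 3.1.0 in the matrix header) was run by the authors against a mouse reference on GRCm38 with unspliced transcripts included. The deposited values are UMI counts, not normalized, over 31053 genes and 56780 barcodes. The submitters' notes also name Seurat 3.1.5. How reads that match nuclear copies of mitochondrial DNA were placed, and whether the strand was used, is not given in the sources used here. Counts of these genes are uncertain to that extent. Whether counts of mt-Nd6 hold opposite-strand RNA of its region was not tested. The authors' cell classes and sample integration were not used.

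Barcodes with 200 to 6000 genes and more than 1000 UMIs were kept (54488), 147 at or above 10% mitochondrial UMIs were left out, and 2288 doublets (4.21%, Scrublet) were removed. Libraries shared 3 to 23 barcodes per pair, at most 0.348% of the smaller. Clusters (scanpy 1.11.5, Leiden at resolution 1, 3000 variable genes, 40 components) were made without mitochondrially encoded genes. Cutoffs for naming them from fixed markers were set after the data were seen.

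UMIs were summed per library and class. edgeR 4.0.16 (TMM, filterByExpr, quasi-likelihood) was fitted over all genes, by genotype, and by sex with genotype as a term. Shares were compared by two-sided exact permutation (4 against 4) and between classes by exact sign flips over 8 libraries, with Benjamini-Hochberg adjustment over 5 sets or 6 pairs. The samples are separate mice. Labels F1, F2, M1 and M2 recur in both genotypes. Deviations of same-labelled libraries from their genotype means had correlations of 0.171 to 0.644 over genes, so by this rule the labels pair the libraries, but the label carries sex. After sex means were also removed the correlations were -0.238 to 0.0736. No label used here ties same-labelled mice beyond sex.

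Named genes are the 10, the other 3 mitochondrially encoded genes, Ifnar1, Malat1 and the ribosomal protein genes, genes of the 2 nuclear lists that passed (or otherwise the 2 with the smallest p in glutamatergic neurons), and the 5 genes most like the heavy-strand sum and mt-Nd6. One gene that this rule names is not reported here. The genes and lists were chosen with earlier results of these data known. Sex marker genes and cell type markers are named as checks of the labels. Comparisons of composition and partner ratios were added after the data were seen. Sequences were read from the GENCODE transcripts of GRCm38. Alternatives were DESeq2 1.42.0, no filter on low counts, total-UMI scaling, other mitochondrial limits, doublets kept, the replicate block, sex as a term, and each library left out.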

Additional observations from a re-analysis of the deposited data

Results flagged for a closer look

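Among 40 groups of 4 libraries examined for a library far from the other 3, 2 met the criterion, and chance alone gives about 1 in 20. In glutamatergic neurons of Wt mice, the highest mt-Nd6 level was 2.77 CPM in Wt M2, where the other 3 lay at 2.00 to 2.06 CPM. In GABAergic neurons of Ifnar1-/- mice, the lowest mt-Nd6 share of mitochondrial UMIs was 0.0482% in Ifnar1-/- M1, where the other 3 lay at 0.137 to 0.148%. No difference between classes in the effect of genotype or sex passed among 24 exact permutation tests (smallest p = 0.0286, smallest adjusted p = 0.0857).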

How the results depend on the processing

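Of 1053 alternative values over 82 results, 904 kept their direction and side of the threshold. By genotype, 0 of the 10 genes were called under every alternative run, the replicate block (0) included. The block was fitted by genotype only, and with it 9, 16, 5, 13 and 17 of all genes were called in the 5 sets, against 10, 10, 4, 8 and 10 without it. Among nuclei under 1% mitochondrial UMIs, the male minus female share was 0.0888 (all nuclei), 0.0931 (glutamatergic) and 0.0951 (GABAergic) percentage points and no longer passed. There the mt-Nd6 differences turned to 0.0029 (glutamatergic minus oligodendrocytes) and 0.0169 (GABAergic minus oligodendrocytes), the non-overlapping genes in oligodendrocytes were 5 by sex and 0 by genotype, and mt-Nd3 by genotype there was -0.934 points (exact permutation p = 0.0857). With doublets kept those oligodendrocyte counts were 1 and 1. Microglia gave no value under 1%, since Ifnar1-/- M2 had no such nuclei. DESeq2 called 3, 3, 1 and 1 genes by sex in glutamatergic neurons, GABAergic neurons, oligodendrocytes and microglia. With no filter on low counts it was 8, 9 and 7 in the last 3 sets, with total UMIs 7 in oligodendrocytes, and with no mitochondrial limit 1 in microglia. mt-Atp8 by sex in glutamatergic neurons turned to 0.0604 (total UMIs), 0.0124 (no filter), 0.0028 (doublets kept) and 0.0908 (no genotype term). The causes were not tested.

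The following ranges are over leaving out each library in turn, with sets in the order all nuclei, glutamatergic neurons, GABAergic neurons, oligodendrocytes, microglia. Genes called by sex ranged 3 to 6, 3 to 6, 3 to 5, 1 to 8 and 0 to 6. The count was 0 in microglia without Wt F1, Wt M1, Wt M2 or Ifnar1-/- F2, 1 in oligodendrocytes without Wt F1 or Ifnar1-/- M2, and 3 without Wt F1, Wt M2 or Ifnar1-/- M2 in the first 3 sets. The male minus female share ranged 0.104 to 0.190, 0.0807 to 0.137, 0.127 to 0.189, 0.190 to 0.463 and 0.190 to 0.598 points, and by genotype -0.0286 to 0.0938, -0.0221 to 0.0653, -0.0112 to 0.0988, -0.0567 to 0.276 and -0.0872 to 0.391, below 0 only without Ifnar1-/- M2. The mt-Nd6 share by sex ranged -0.0742 to -0.0317, -0.0720 to -0.0193, -0.0863 to -0.0553, -0.0695 to -0.0241 and -0.0792 to -0.0419. Between classes it ranged -0.00900 to 0.00527 (glutamatergic minus GABAergic), -0.0119 to 0.00333 (glutamatergic minus oligodendrocytes) and -0.0102 to 0.00676 (GABAergic minus oligodendrocytes). Non-overlapping genes by sex numbered 3 to 8, 3 to 8, 3 to 7, 3 to 4 and 3 to 5, the most without Ifnar1-/- M2 in all but oligodendrocytes. By genotype they numbered 1 to 3, 1 to 5, 1 to 4, 2 to 3 and 1 to 2, the most without Ifnar1-/- M1 in all but oligodendrocytes. mt-Nd3 by genotype ranged -1.44 to -1.06, -1.41 to -1.05, -1.55 to -1.17, -1.37 to -0.870 and -1.24 to -0.846 points. In glutamatergic neurons the log2 fold changes by genotype ranged -0.0502 to 0.84 (mt-Co1), -0.36 to 0.24 (mt-Cytb), -0.30 to 0.52 (mt-Nd1), -0.22 to 0.41 (mt-Nd2), -0.92 to 0.20 (mt-Nd3), -0.19 to 0.71 (mt-Nd4) and -0.0016 to 0.88 (mt-Nd5), and by sex -0.71 to 0.28 (mt-Atp8) and -0.34 to 1.09 (mt-Nd6), below 0 for mt-Nd6 only without Ifnar1-/- M2.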

Other observations

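In glutamatergic neurons, the mt-Nd6 share of mitochondrial UMIs was also taken within bands of each nucleus's mitochondrial percentage. Summed over libraries it was 0.116% in nuclei under 0.25% mitochondrial UMIs, 0.094% from 0.25 to 0.5%, 0.127% from 0.5 to 1% and 0.118% from 1 to 10%. Within the band from 0.5 to 1%, where Ifnar1-/- F2 had only 16 nuclei with 3 mt-Nd6 UMIs, the share was 0.18% in Ifnar1-/- M2, 0.182% in Ifnar1-/- F1 and 0.049 to 0.121% in the other 5 libraries. Ifnar1-/- M2 had no nuclei in the lowest band and gave 37 of 200, 231 of 332 and 104 of 136 mt-Nd6 UMIs in the other 3, so the summed values weigh the libraries differently in each band.

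In oligodendrocyte precursors, 456 nuclei, the 10 genes averaged 0.433% ± 0.268 (SD, n = 8) of UMIs. In the 2176 striatal projection neurons, which are not cortical, they averaged 0.260% ± 0.145. These neurons were kept apart from the tested classes but count in all nuclei.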
